A study of Mus musculus with 24 samples.

Results

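The genes described here were the 39 HOX genes of the mouse and 5 other transcription factor genes of positional identity, Pitx1, Tbx15, Tbx5, Shox2 and En1, measured in adipose tissue. They were chosen by symbol alone, as every measured symbol that reads Hoxa, Hoxb, Hoxc or Hoxd followed by a number, without antisense entries, plus the 5 named genes. This gave 44 of 24421 genes. No threshold on a value was used. The set was proposed after levels of these genes across the 6 groups had been seen, so the counts of called members below describe these libraries and are not independent support for a pattern.

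The libraries came from total RNA of adipose tissue. The mice, of strain C57BL/6 and 2 months of age, were wild type (WT) or carried a point mutation of STAT5B, Y665F or Y665H, in which the tyrosine at that position is replaced by phenylalanine or by histidine. STAT5B is a transcription factor activated by growth hormone and cytokine receptors. The 6 groups were WT male, Y665F male, Y665H male, WT female, Y665F female and Y665H female, with 4 libraries each. The labels give no fat depot, do not say whether the mutation was on 1 or both alleles, and do not say that each library came from its own animal, so p-values measure the spread between these libraries, which may be technical.

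HOX genes encode homeodomain transcription factors and lie in 4 clusters, in which the order of the genes along the chromosome follows the order in which they are expressed along the body axis. Genes with low paralog numbers, at the 3′ end of a cluster, are expressed from more anterior levels, and genes with high numbers, at the 5′ end, are expressed posteriorly and in the distal limb and genital tract. Adult adipose stroma keeps such codes, which differ between fat depots. Pitx1 specifies the hindlimb and Tbx5 the forelimb and heart. Tbx15, Shox2 and En1 act in skeleton, limb and skin patterning, and Tbx15 and Shox2 are known to differ between subcutaneous and visceral fat.

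The clusters lay, in the GRCm38 build, on the minus strand of chromosome 6 (Hoxa, 11 genes), on chromosome 11 from 96194316 to 96368256 on the plus strand (Hoxb, 10 genes), on chromosome 15 from 102921103 to 103036852 on the plus strand (Hoxc, 9 genes) and on chromosome 2 from 74668310 to 74765142 on the plus strand (Hoxd, 9 genes). Several members share annotated exon bases with a neighbour. Of the exon bases of Hoxa11, 35% lie opposite other annotated exons, those of the antisense gene Hoxa11os, and for Hoxb3 this share is 52.9%, opposite Hoxb3os. It is 27.3% for Hoxb2, also opposite Hoxb3os, 25.4% for Hoxa3 and 20.4% for Hoxa7, and smaller in some other members. Hoxd3 shares 62.3% of its exon bases with Hoxd4 and another gene on the same strand. Hoxd4 shares 52.3% of its own with Hoxd3 and that other gene, and 11.8% lie opposite an antisense gene. The values of these members are therefore uncertain, because how such reads were assigned is not given in the sources used here.

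Promoters of 24 of the 44 members, with 26 start sites, were found in the RefSeq table for GRCm38.p6, and 5 of them are shown. Hoxa10, Hoxa13 and Hoxd11 were among the 5′ genes with higher levels in females than in most males. Hoxb8 was the member with the widest range among males as a difference in CPM, though not as a ratio. Hoxd4 was not called between the sexes in any genotype and is shown because it held a match to the STAT5 consensus. Each is the 250 bases upstream of the start on the gene's strand, with no annotated exon base, at chr6:52234940-52235189 on the minus strand for Hoxa10, chr6:52260881-52261130 on the minus strand for Hoxa13, chr2:74682073-74682322 on the plus strand for Hoxd11, chr11:96281655-96281904 on the plus strand for Hoxb8 and chr2:74721728-74721977 on the plus strand for Hoxd4. For Hoxa10 and Hoxd11, 1 of 2 starts is shown. The other Hoxa10 window, chr6:52240855-52241104, lay just upstream of the annotated gene, whereas the one shown lies inside it. The other Hoxd11 window was chr2:74679308-74679557. Neither of these other windows held a match to the motifs named next. Capitals mark matches, on either strand, to TTCNNNGAA (STAT5 consensus), TGATTNAT (a joint PBX and HOX site), TGACAG (MEIS site) or TATAAA, a core promoter box.
Hoxa10: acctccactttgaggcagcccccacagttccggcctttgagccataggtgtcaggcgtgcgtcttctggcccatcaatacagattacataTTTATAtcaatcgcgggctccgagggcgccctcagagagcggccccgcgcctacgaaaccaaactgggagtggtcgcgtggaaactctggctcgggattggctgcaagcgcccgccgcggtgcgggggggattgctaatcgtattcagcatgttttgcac
Hoxa13: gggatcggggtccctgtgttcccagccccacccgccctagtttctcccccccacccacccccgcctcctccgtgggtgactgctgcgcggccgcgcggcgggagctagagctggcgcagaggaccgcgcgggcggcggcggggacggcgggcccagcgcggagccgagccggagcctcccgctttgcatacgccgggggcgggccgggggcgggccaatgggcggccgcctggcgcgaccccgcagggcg
Hoxd11: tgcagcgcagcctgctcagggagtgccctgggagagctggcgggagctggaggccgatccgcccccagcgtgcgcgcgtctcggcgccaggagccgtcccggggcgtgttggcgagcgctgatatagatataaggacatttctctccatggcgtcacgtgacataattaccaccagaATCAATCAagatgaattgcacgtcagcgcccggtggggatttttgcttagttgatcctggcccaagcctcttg
Hoxb8: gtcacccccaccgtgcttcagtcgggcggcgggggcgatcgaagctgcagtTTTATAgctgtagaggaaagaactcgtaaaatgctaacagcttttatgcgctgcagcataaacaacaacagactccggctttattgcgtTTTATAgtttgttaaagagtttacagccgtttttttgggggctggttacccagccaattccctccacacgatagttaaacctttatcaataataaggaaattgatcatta
Hoxd4: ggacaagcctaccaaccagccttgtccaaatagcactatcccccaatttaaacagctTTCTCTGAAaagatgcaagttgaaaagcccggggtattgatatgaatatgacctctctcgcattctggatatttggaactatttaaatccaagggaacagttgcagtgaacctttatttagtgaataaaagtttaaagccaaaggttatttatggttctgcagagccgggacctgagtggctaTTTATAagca

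Of the 26 member promoters, 1 held the STAT5 consensus (Hoxd4), against 7.02% of 32851 promoters of this length. The PBX and HOX site was present in 2 (Hoxa2 and Hoxd11), against 2.82%, the MEIS site in 3 (En1, Hoxa2 and Hoxa3), against 15.9%, and TATAAA in 5 (Hoxa10, Hoxb8, Hoxd13, Hoxd4 and Shox2), against 12.4%. The Hoxa13 window held none of the 4 motifs and was 80% G or C. Such matches are descriptions of letters in these windows.

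Levels are counts per 1000000 gene counts (CPM). Depth ran from 21.0 to 41.3 M gene counts per library, and a count of 0 allowed a level of up to 0.0726 to 0.143 CPM (3 counts, counting error only). Xist, the RNA of the inactive X chromosome, lay between 492 and 942 CPM in females and reached no more than 2.64 CPM in any male, and the Y-linked Kdm5d lay between 25.8 and 39.1 CPM in males with a female maximum of 0.0806 CPM. Stat5b itself was at 80.4 to 122 CPM, which does not check the genotype labels, since a point mutation leaves the count in place. The summed level of 12 adipocyte markers was 8266 to 29248 CPM, with all 12 detected in each library. The 9 fibroblast and progenitor markers summed to 3299 to 5835 CPM in males and 6142 to 13031 CPM in females, without overlap, and their part in the differences between the sexes below was not tested. Some male libraries also held epididymal transcripts. The sum of 10 epididymis markers was 14626 CPM in WT male 2, 3426 in WT male 3, 1291 in WT male 4, 1661 in Y665H male 3 and 953 in Y665F male 4, and at most 2.16 CPM in the females. In the 3 WT libraries all 10 were at 1 CPM or more, in Y665H male 3 only 5 were and in Y665F male 4 only 2. In females 6 to 9 of the 10 had no count. Since no depot is named, a difference between the sexes and one between the depots sampled cannot be told apart.

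Of the 44 members, 22 were at 1 CPM or more in all 24 libraries and 39 in at least 1 library. Hoxb13, Hoxc13, Hoxd1 and En1 stayed below 1 CPM throughout, and Hoxc12 had no count in any library. Per kilobase of exon, the level of Hoxc8 was the highest of the members in both sexes, with a median of 17.9 CPM per kb in females and 30.9 in males. In females it was followed by Hoxc10 at 13.5 CPM per kb, Hoxc6 at 10.4, Hoxd8 at 8.51 and Hoxa10 at 6.56. In males it was followed by Hoxc6 at 11.4 CPM per kb, Hoxd8 at 10.8, Hoxd4 at 7.24, Hoxc4 at 6.92 and Hoxb6 at 6.78. Neighbours in these orders overlapped in range, apart from Hoxc8 and Hoxc6 in males, which spanned 17.6 to 42.6 and 6.66 to 15.7 CPM per kb.

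**Figure D1:**
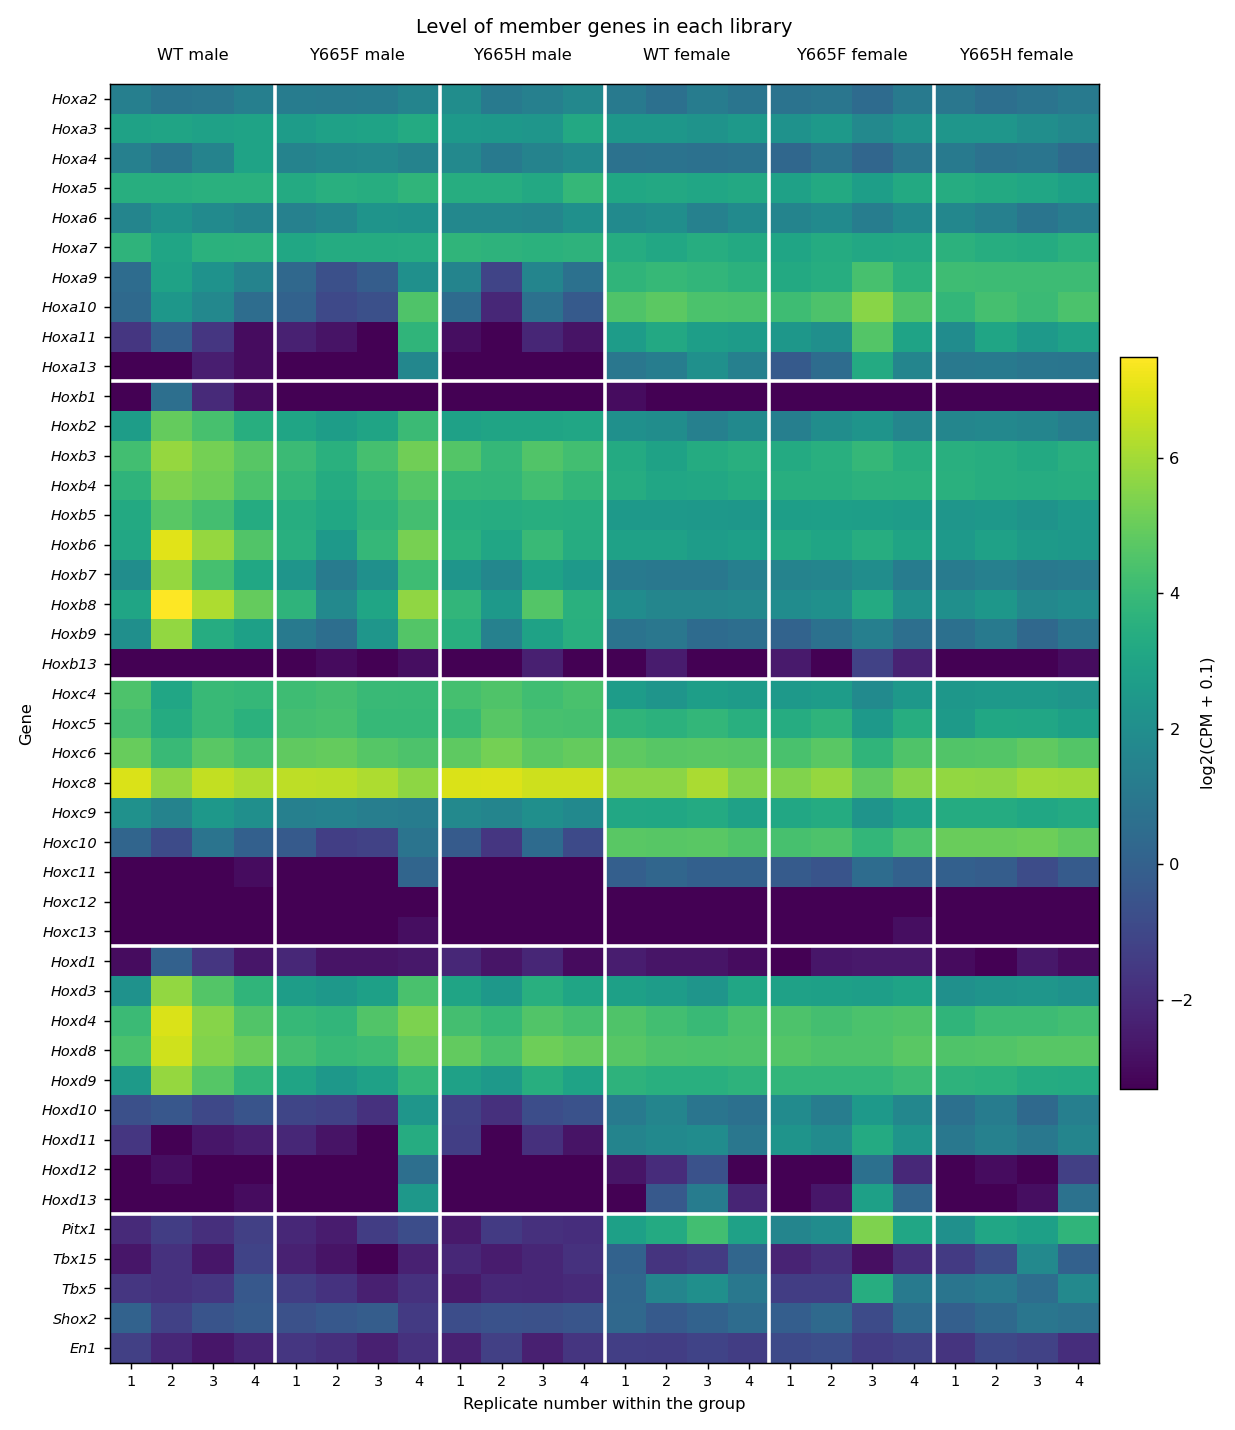
Level of the members (rows; one is left out) in each of the 24 libraries (columns, by group and replicate number), as log2(CPM + 0.1). Hoxa9 to Hoxa13, Hoxc9 to Hoxc11, Hoxd10, Hoxd11 and Pitx1 are higher in the female columns than in most male columns. Y665F male 4 is an exception for Hoxa10 to Hoxa13, Hoxc11, Hoxd10 and Hoxd11. Hoxd12 and Hoxd13 are at 0 in several columns of both sexes and high in Y665F male 4. Hoxb2 to Hoxb9 are high in several male columns, above all WT male 2.

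The sexes differed most at the 5′ ends of the Hoxa, Hoxc and Hoxd clusters. Hoxc10, a posterior HOX gene of hindlimb and lumbar levels that also marks fat from posterior subcutaneous depots, was at 25.9, 25.5, 26.7 and 22.6 CPM in WT female replicates 1 to 4 and at 1.06, 0.448, 1.67 and 0.897 CPM in WT males. In Y665F it was at 20.0, 22.1, 14.1 and 21.3 CPM in females and at 0.738, 0.301, 0.334 and 1.67 CPM in males. In Y665H it was at 32.4, 32.3, 34.2 and 28.5 CPM in females and at 0.758, 0.231, 1.27 and 0.435 CPM in males. No male library came near the lowest female one in any genotype. The log2 fold change, male minus female, was -4.76 (SE 0.38, adjusted p = 0.00117, edgeR) in WT, -4.67 (SE 0.52, adjusted p = 0.00349) in Y665F and -5.75 (SE 0.38, adjusted p = 6.01e-05) in Y665H.

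Hoxc9 and Hoxc11, the neighbours of Hoxc10, were also lower in males. Hoxc9 was at 8.76, 8.58, 9.62 and 7.17 CPM in WT females and 4.29, 2.72, 5.27 and 4.05 CPM in WT males, a log2 fold change of -1.21 (SE 0.23, adjusted p = 0.0203). It was called in Y665F (-1.61, SE 0.25, adjusted p = 0.0093) and in Y665H (-1.62, SE 0.14, adjusted p = 0.000215) as well. Over all 12 libraries of a sex its ranges met, at 4.70 to 9.94 CPM in females and 2.25 to 5.27 CPM in males. Hoxc11 gave 138 counts in WT females and 1 in WT males, a ratio of 127 (95% interval 22.4 to 5046, counting error only). In Y665H it gave 107 counts in females and none in males, at least 35.9-fold lower in males against a floor of 3 counts over the group. In Y665F males it was at 0 in replicates 1 to 3 and at 1.06 CPM in replicate 4, within the female range of 0.591 to 1.30 CPM.

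In the Hoxa cluster the step between the sexes fell between Hoxa7 and Hoxa9. Hoxa7 was at 10.3, 8.87, 10.5 and 9.31 CPM in WT females and 13.0, 8.12, 12.0 and 12.4 CPM in WT males, and was not called between the sexes in any genotype. Hoxa9 was at 13.5, 15.1, 13.6 and 12.4 CPM in WT females and 1.32, 7.29, 4.46 and 2.75 CPM in WT males, a log2 fold change of -1.94 (SE 0.45, adjusted p = 0.0307). It was also called in Y665F (-2.97, SE 0.62, adjusted p = 0.0204) and in Y665H (-3.33, SE 0.47, adjusted p = 0.00126), and its 12 female libraries, from 9.38 CPM up, did not overlap the 12 male ones.

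Hoxa10, which acts in uterus and hindlimb patterning, was at 22.6, 27.4, 21.3 and 20.8 CPM in WT females and 1.21, 5.15, 3.16 and 1.36 CPM in WT males (log2 fold change -3.23, SE 0.47, adjusted p = 0.00843). In Y665H it was at 14.3, 19.4, 16.2 and 21.6 CPM in females and 1.29, 0.129, 1.54 and 0.726 CPM in males (-4.46, SE 0.50, adjusted p = 0.000494). In Y665F the males were at 0.963, 0.427, 0.524 and 22.6 CPM, so that replicate 4 reached the female values of 17.2, 22.3, 47.7 and 22.9 CPM, and the difference was not called. Without that library Hoxa10 was called lower in Y665F males.

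Hoxa11 and Hoxa13, the genes of the distal limb and genital tract, followed the same order. Hoxa11 was at 6.16, 8.97, 6.48 and 6.01 CPM in WT females and 0.23, 0.895, 0.23 and 0.0289 CPM in WT males (log2 fold change -4.46, SE 0.76, adjusted p = 0.0141). In Y665H it was at 3.74, 7.99, 5.44 and 7.24 CPM in females and no higher than 0.121 CPM in any male (-7.00, SE 0.53, adjusted p = 0.000103). The antisense transcript Hoxa11os moved with it and shares its exon bases (3.50 to 4.59 CPM over the WT females, at most 0.288 over the WT males). Hoxa13 gave 272 counts in Y665H females and none in Y665H males, at least 91.4-fold lower in males. In WT it was at 1.87, 2.31, 4.14 and 2.52 CPM in females and 0, 0, 0.0863 and 0.0289 CPM in males (-6.51, SE 0.74, adjusted p = 0.00378).

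In the Hoxd cluster of WT the step fell further 5′, between Hoxd9 and Hoxd10. Hoxd8 was at 25.5, 22.1, 21.7 and 22.2 CPM in WT females and 20.6, 106, 43.8 and 32.7 CPM in WT males, and was not called in any genotype. Hoxd9, at 9.77 to 16.3 CPM over the females and 5.40 to 55.1 CPM over the males, was called lower in males in Y665H alone (-0.64, SE 0.20, adjusted p = 0.0361). Hoxd10 was at 2.12, 2.96, 1.72 and 1.5 CPM in WT females and 0.518, 0.671, 0.403 and 0.608 CPM in WT males (log2 fold change -2.06, SE 0.30, adjusted p = 0.00847). Hoxd11 was at 2.82, 3.37, 3.76 and 1.88 CPM in WT females and 0.23, 0, 0.0575 and 0.0868 CPM in WT males (-5.05, SE 0.71, adjusted p = 0.00794). Both were called in Y665H too, and neither in Y665F, where male replicate 4 was at 4.97 CPM for Hoxd10 and 10.1 CPM for Hoxd11. Hoxd13, the last gene of the cluster, varied among females, at 0, 0.70, 2.26 and 0.116 CPM in WT, 0, 0.0591, 6.97 and 1.09 in Y665F and 0, 0, 0.0311 and 1.56 in Y665H, and was at 0 in 10 of the 12 male libraries. Hoxd12 passed 1 CPM in Y665F male 4 (1.44) and Y665F female 3 (1.51), and no more than 0.564 CPM elsewhere.

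**Figure D2:**
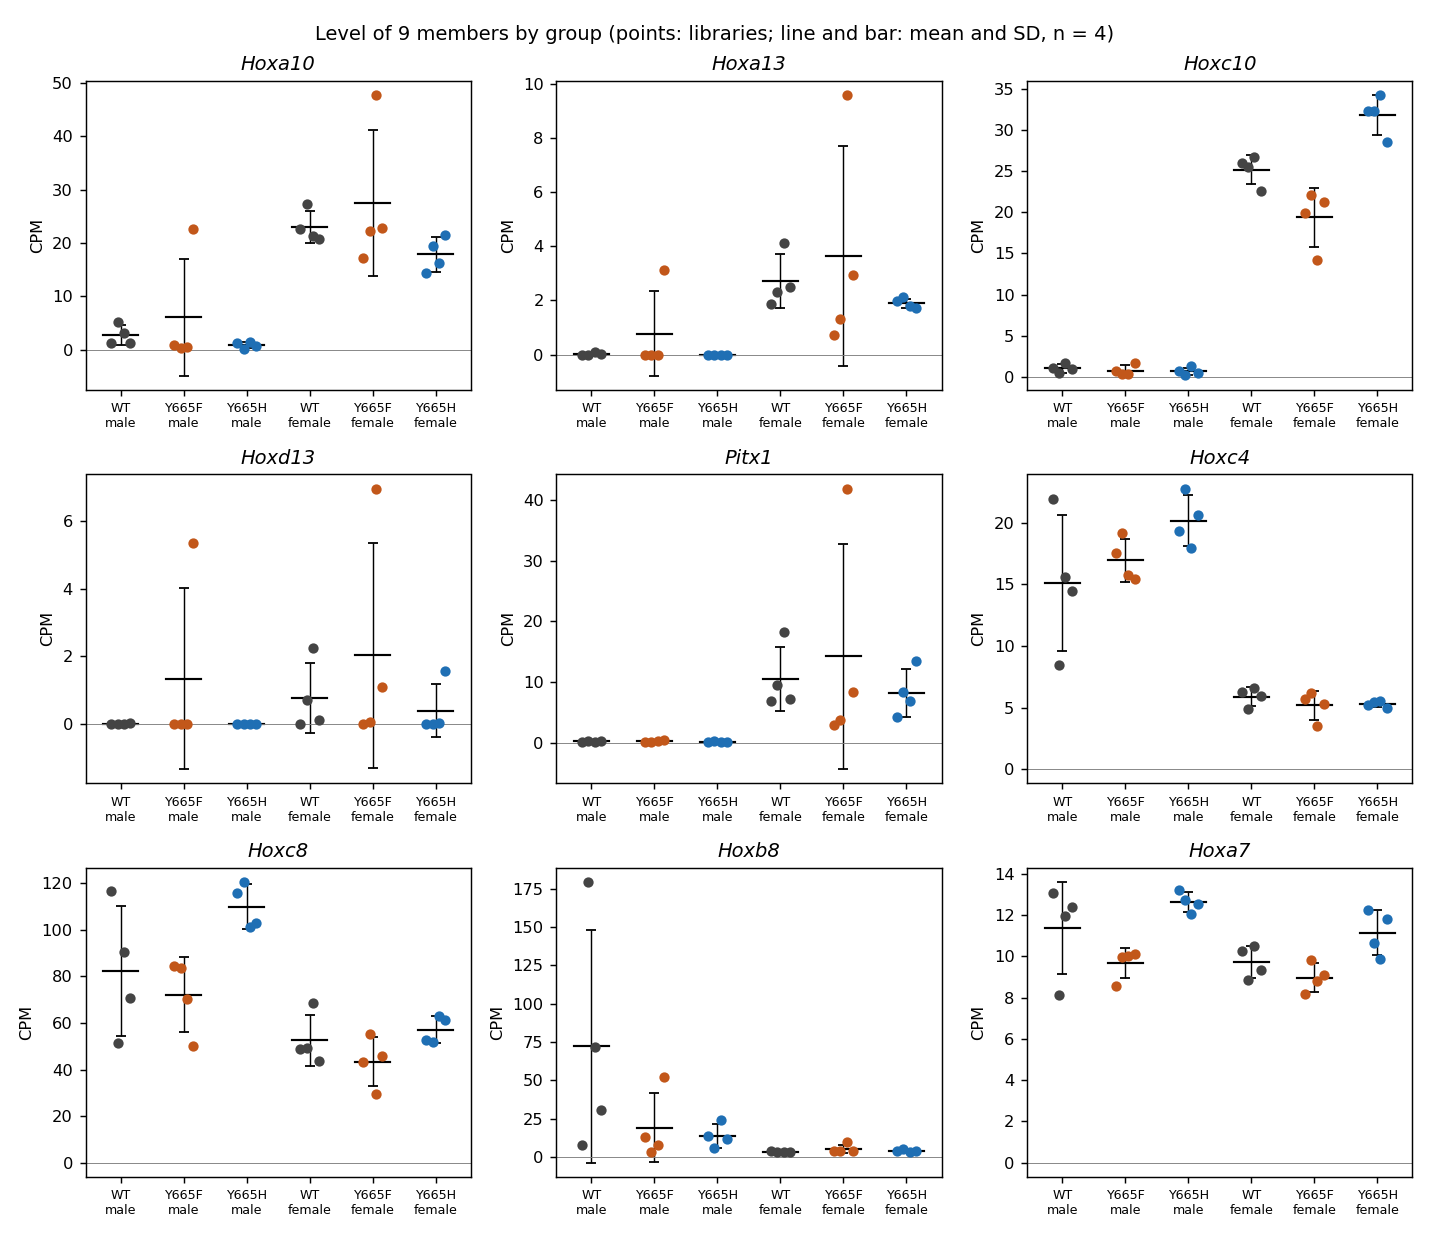
CPM of 9 members in the 6 groups, on linear axes of different range. Points are libraries, the horizontal line is the mean and the bar the SD (n = 4); Hoxc10 and Pitx1 separate the sexes in every library, Y665F male 4 stands at 22.6 CPM for Hoxa10 and 5.36 CPM for Hoxd13, and WT male 2 stands at 179 CPM for Hoxb8.

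Hoxc4, Hoxb2 and Hoxb5 were called higher in males in all 3 genotypes, and other Hoxb and 3′ Hoxc genes in 1 or 2 of them or in none. Hoxc4, which acts at neck and upper trunk levels, was at 22.0, 8.44, 15.6 and 14.5 CPM in WT males and 6.24, 4.85, 6.56 and 5.96 CPM in WT females (log2 fold change 1.22, SE 0.29, adjusted p = 0.0324). It was called in Y665F (1.73, SE 0.20, adjusted p = 0.00417) and in Y665H (1.78, SE 0.13, adjusted p = 7.48e-05) as well, and the 12 male libraries did not overlap the 12 female ones. Hoxc8, at 116, 121, 101 and 103 CPM in Y665H males and 52.6, 51.7, 62.9 and 61.4 CPM in Y665H females, was called in that genotype (0.80, SE 0.11, adjusted p = 0.00107). In WT its sexes overlapped. Hoxc5 was called higher in males in Y665H (1.31, SE 0.18, adjusted p = 0.00118). Within the Hoxc cluster Hoxc4 was thus called higher in males, and Hoxc9 and Hoxc10 higher in females, in all 3 genotypes. Hoxc11 was called higher in females in 2 genotypes, Hoxc5 and Hoxc8 higher in males in 1, and Hoxc6 in none.

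Hoxb2, a hindbrain and anterior trunk gene, was at 6.42, 30.2, 20.0 and 11.0 CPM in WT males and 4.20, 3.89, 2.50 and 3.35 CPM in WT females. The log2 fold change was 2.13 (SE 0.46, adjusted p = 0.0257) in WT, 1.46 (SE 0.31, adjusted p = 0.0214) in Y665F and 1.29 (SE 0.16, adjusted p = 0.000712) in Y665H. Hoxb8 spanned the widest range in CPM, at 8.03, 179, 71.5 and 30.5 CPM in WT males against 3.69, 3.03, 3.01 and 3.24 CPM in WT females (4.33, SE 0.85, adjusted p = 0.0205). In Y665F males it was at 13.2, 3.34, 8.01 and 52.2 CPM and in Y665H males at 13.6, 5.60, 23.9 and 11.7 CPM. The sum over Hoxb1 to Hoxb8 was 243 ± 198 CPM (SD, n = 4) in WT males and 40.1 ± 2.68 in WT females, so that the spread among the males was close to their mean.

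Hoxb3 to Hoxb7 and Hoxb9 also had their highest male value in WT male 2. Hoxb5 was at 9.38, 26.2, 19.0 and 9.87 CPM in WT males and 5.15 to 5.73 CPM in WT females, and was called in all 3 genotypes, with log2 fold changes of 1.41 in WT, 0.96 in Y665F and 0.90 in Y665H. Hoxb3, Hoxb6, Hoxb7, Hoxb8 and Hoxb9 were called in WT and Y665H, and Hoxb4 in WT. Hoxb1, the most 3′ gene of the cluster, was at 1.44 CPM in WT male 2 and at most 0.144 CPM in any other library, and Hoxd1 was at 0.927 CPM in WT male 2.

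The 3′ Hoxa genes, which act in hindbrain and neck, differed less. In Y665F, Hoxa4 was at 2.76, 3.11, 3.34 and 2.73 CPM in males and 1.14, 1.69, 1.10 and 1.87 CPM in females, without overlap. It was called there (log2 fold change 1.07, SE 0.24, adjusted p = 0.0241), as was Hoxa3 (0.77, SE 0.21, adjusted p = 0.0434). Hoxa2, Hoxa5 and Hoxa6 were not called in any genotype, with Hoxa5 at 9.04 to 14.7 CPM over the males and 6.49 to 10.1 CPM over the females. At the other end of the cluster, the sum over Hoxa9 to Hoxa13 was 7.05 ± 4.72 CPM over the WT males and 46.3 ± 5.21 CPM over the WT females (SD, n = 4).

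The highest Hoxb8 values stood in libraries with epididymal and epithelial transcripts. The 5 males with the highest epididymis sums, 953 CPM and above, were at 23.9 to 179 CPM for Hoxb8, and the other 7 at 3.34 to 13.6 CPM. These 5 were above the other 7 for Hoxb4 as well, at 18.7 to 41.6 against at most 15.2 CPM. The same held for Hoxb6 (16.2 to 127 against at most 14.7 CPM) and Hoxb7 (7.44 to 55.3 against at most 5.54 CPM), and for Hoxd3, Hoxd8 and Hoxd9. It also held for the 5′ gene Hoxa10, at 1.36 to 22.6 against at most 1.29 CPM. Hoxb2, Hoxb3, Hoxb5, Hoxb9 and Hoxd4 did not separate them. Hoxb9 was at 11.1 CPM in Y665H male 1 and 11.3 in Y665H male 4, whose epididymis sums were 13.7 and 170 CPM, above the 10.4, 7.00 and 7.41 CPM of WT male 3, WT male 4 and Y665H male 3. Y665F male 1, with an epididymis sum of 445 CPM, had 2.05 CPM of Hoxb9, and Y665H male 3 had 7.83 CPM of Hoxb2 and 10.9 CPM of Hoxb5, below the 7.91 and 12.6 CPM of Y665F male 3, whose epididymis sum was 0.81 CPM. The part of epididymal cells in the Hoxb values was not tested. The 13 epithelial markers summed to 1268 CPM in WT male 2, 895 in WT male 3, 538 in WT male 4, 449 in Y665H male 3 and 405 in Y665F male 4, and to 39.3 to 157 CPM in the other 7 male libraries. WT male 2 also had the lowest adipocyte sum, 8266 CPM, and the highest Hoxd3 (52.6 CPM), Hoxd4 (119), Hoxd8 (106) and Hoxd9 (55.1). In the 4 male libraries whose epididymis sum was 0.502 to 2.21 CPM, at the level of females, Hoxb8 was at 3.34, 8.01, 8.03 and 5.60 CPM. The females were at 3.01 to 9.55 CPM, so these 4 males lay within the female range. Among the females Y665F female 3 was the highest, and the next was at 5.19 CPM. In the same 4 libraries Hoxb2 was at 6.38 to 7.91 CPM and Hoxb5 at 8.49 to 12.6 CPM, above the highest female values of 4.77 and 6.86 CPM, and Hoxc4 was at 15.7 to 22.8 CPM, above 6.56 CPM. Hoxc10 was at 0.231 to 1.06 CPM there and at 0.435 to 1.67 CPM in the other males. Hoxa10 was at 0.129 to 1.21 CPM there and at 0.726 to 22.6 CPM in the other males. The part of epididymal cells in these levels was not tested. In bulk tissue, fewer cells of a type and less RNA per cell cannot be told apart.

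**Figure D3:**
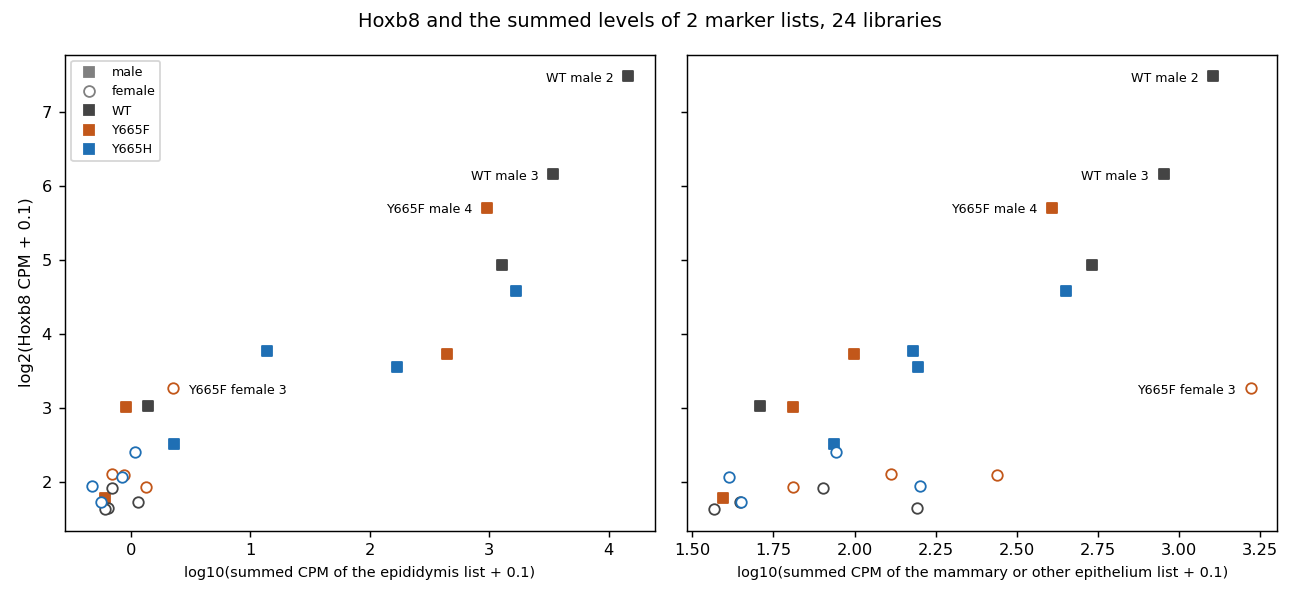
Hoxb8 (log2(CPM + 0.1)) against the summed CPM of 10 epididymis markers (left) and 13 epithelial markers (right), both as log10 with 0.1 added, in 24 libraries; squares are males and open circles females. WT male 2 and WT male 3 have the highest Hoxb8 and the highest epididymis sums, and Y665F female 3 has the highest epithelial sum, 1659 CPM, with Hoxb8 at 9.55 CPM.

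Counting over all libraries, 3 members were higher in each of the 12 female libraries than in any of the 12 male ones (Hoxa9, Hoxc10 and Pitx1), against 0.603% of the 22050 genes with a count, and 3 were higher in each male library (Hoxb2, Hoxb5 and Hoxc4), against 1.35% of genes. Without Y665F male 4, 9 members were higher in each female library, the additions being Hoxa10, Hoxa11, Hoxa13, Hoxc11, Hoxd10 and Hoxd11, against 0.776% of genes. In that case 3 were higher in each male library, against 1.37%. That library was chosen for leaving out after its levels of the added genes had been seen. The count of 9 and its share of genes are therefore a description and no support for a pattern.

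By genotype, 20 of the 36 members tested in WT were called (adjusted p under 0.05) between males and females, 9 higher and 11 lower in males. Of all 15865 genes tested 13.1% were called, 7.15% higher and 5.95% lower. In Y665H 25 of 35 were called, 12 higher and 13 lower, against 28.8% of genes (15.2% higher and 13.7% lower). In Y665F 10 of 34 were called, 6 higher and 4 lower, against 15.1% of genes (7.6% higher and 7.52% lower). The 4 libraries of each sex did not overlap for 23 members in WT, 27 in Y665H and 13 in Y665F, against 25.2%, 32.5% and 24.8% of genes. Members tested had passed a filter on low counts, and 8 to 10 members did not pass it, among them Hoxb1, Hoxb13, Hoxc12 and Hoxc13. Called in all 3 genotypes were 7 members: Hoxa9, Hoxc9, Hoxc10 and Pitx1, lower in males, and Hoxb2, Hoxb5 and Hoxc4, higher in males. In 2 genotypes 13 were called, in 1 genotype 8 and in none 16, and 0 were called in opposite directions. The median log2 fold change of the members was 0.10 in WT, 0.42 in Y665F and 0.21 in Y665H, beside 0.04, 0.00 and 0.02 over all genes.

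These counts depended on single libraries in WT and Y665F. In WT the count was 7 to 8 when any 1 of the 4 female libraries was left out and 10 without WT male 3. The 7 calls that stayed in every such fit were Hoxa10, Hoxa13, Hoxc10, Hoxc11, Hoxd10, Hoxd11 and Pitx1, all lower in males, and no Hoxb call did. In Y665F the count was 17 without Y665F male 4, 12 of them lower in males, 18 without that library and Y665F female 3, and 5 to 6 without Y665F male 3, Y665F female 1 or Y665F female 4. Hoxc4, Hoxc9, Hoxc10 and Pitx1 stayed called there. In Y665H 23 of the 25 calls stayed, and Hoxd3 and Hoxd9 did not. Of these 23, Hoxb3, Hoxb6, Hoxb7 and Hoxb8 were lost in the fit of all 24 libraries. Hoxb8 was also lost with the replicate number as a block (adjusted p = 0.0505, edgeR).

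**Figure D4:**
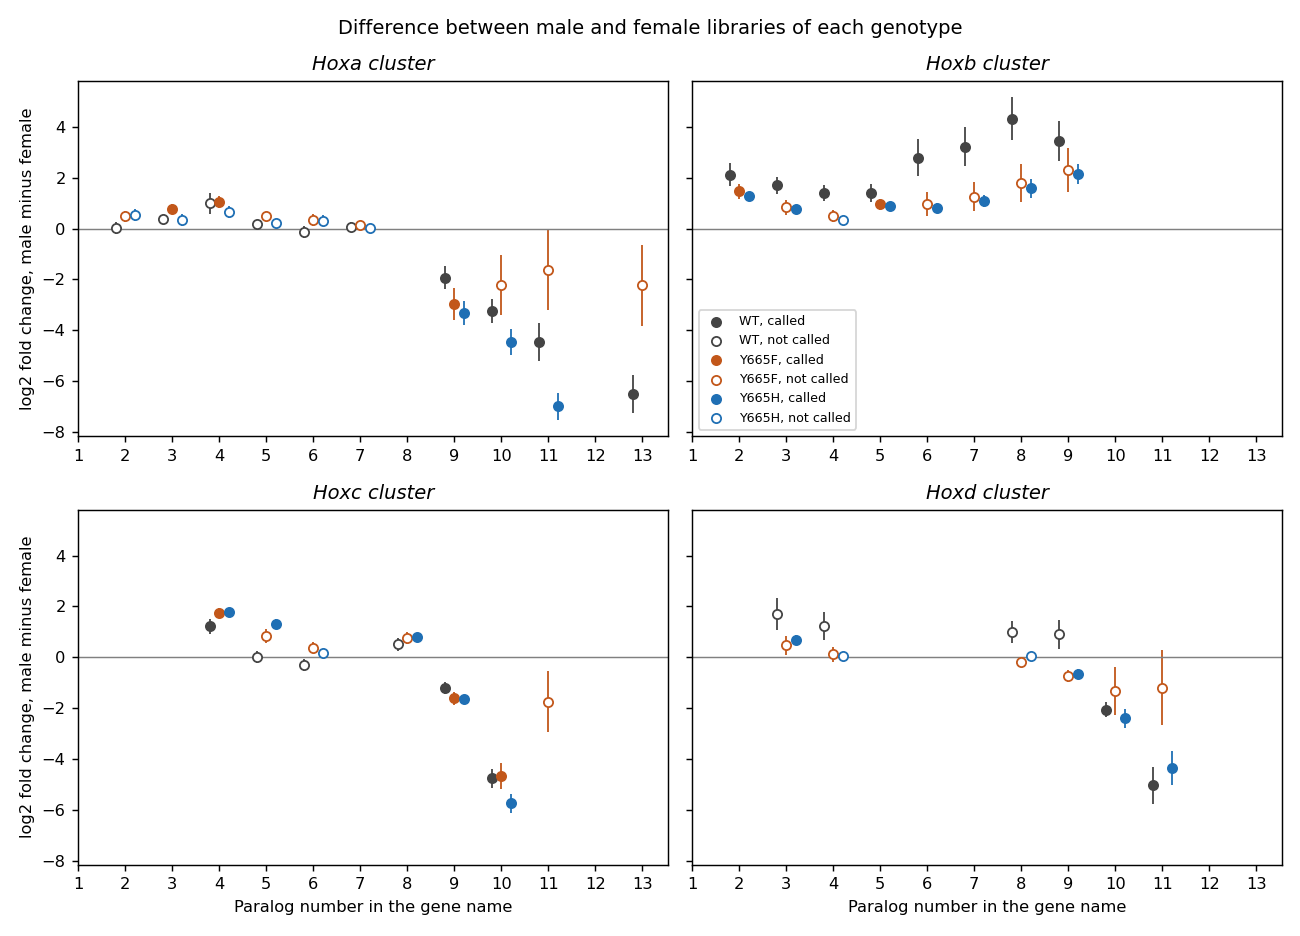
log2 fold change, male minus female, with its SE, against the paralog number in the gene name for the 4 clusters and 3 genotypes (8 libraries a fit); filled points were called and open points were not, and genes with 3 or fewer counts in 1 sex or not tested, and one further Hoxa gene, are left out. In WT and Y665H the Hoxa, Hoxc and Hoxd values fall below 0 from paralog 9 or 10 on, as with Hoxc10 at -4.76 and -5.75, whereas the Hoxb values lie above 0.

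Y665F male 4 reached female levels for some of the 5′ genes that were higher in females, but not for other members. It was at 13.3 CPM for Hoxa11, 3.11 for Hoxa13, 10.1 for Hoxd11, 1.44 for Hoxd12 and 5.36 for Hoxd13, where the other 3 Y665F males were at most 0.128 CPM for each. Its Hoxc9 level, 2.25 CPM, was the lowest of the 12 males. Its levels of Hoxa9 (4.20 CPM), Hoxc10 (1.67), Pitx1 (0.481) and Tbx5 (0.193) were below those of every female. Its Pitx1 level was nonetheless the highest of the 12 males, and its Hoxc10 level was exceeded among males only by WT male 3. Its Hoxa9 level was above the 0.527 to 1.16 CPM of the other Y665F males. Hoxa11os was at 10.7 CPM, Ucp1, the uncoupling protein of thermogenic adipocytes, at 3.24 CPM and the 13 skeletal muscle markers at 274 CPM in this library, each the highest of the 12 males. Its Xist and Kdm5d levels lay in the male range. The part of other cells in these values was not tested.

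Y665F female 3 stood apart among the females in several of these genes. It was at 47.7 CPM for Hoxa10, 24.2 for Hoxa11, 9.58 for Hoxa13, 9.65 for Hoxd11, 6.97 for Hoxd13, 41.9 for Pitx1 and 10.6 for Tbx5, each the highest of the 12 females. For Hoxc4 to Hoxc10 it was the lowest, with 3.54 CPM for Hoxc4, 5.53 for Hoxc5, 13.5 for Hoxc6, 29.3 for Hoxc8, 4.70 for Hoxc9 and 14.1 for Hoxc10. Its adipocyte sum of 13802 CPM was the lowest of the females and its epithelial sum of 1659 CPM the highest of all libraries, with Krt7 at 531 CPM. The part of these cells in the HOX values was not tested.

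Among the 5 positional genes outside the clusters, Pitx1 gave the clearest difference. It was at 6.92, 9.57, 18.3 and 7.23 CPM in WT females and 0.144, 0.288, 0.173 and 0.318 CPM in WT males (log2 fold change -5.65, SE 0.46, adjusted p = 0.00133). In Y665F it was at 2.93, 3.70, 41.9 and 8.39 CPM in females and 0.128, 0.0753, 0.286 and 0.481 CPM in males (-5.85, SE 1.09, adjusted p = 0.0147). In Y665H it was at 4.16, 8.34, 6.87 and 13.5 CPM in females and 0.0659, 0.257, 0.181 and 0.169 CPM in males (-5.68, SE 0.46, adjusted p = 0.000162). Skeletal muscle of the hindlimb also expresses Pitx1. The 13 muscle markers summed to 24.7 to 274 CPM in males and 27.9 to 2008 CPM in females. Of the 13, 9 were called lower in males in WT and 12 in Y665H, and 0 of 12 tested in Y665F. The part of muscle in the Pitx1 values was not tested.

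Tbx5 was at 1.11, 2.90, 4.06 and 1.94 CPM in WT females and 0.23, 0.192, 0.23 and 0.694 CPM in WT males (log2 fold change -3.05, SE 0.55, adjusted p = 0.0162), and it was called in Y665H (-4.28, SE 0.38, adjusted p = 0.000222). In Y665F it did not pass the filter. Shox2 was at 0.878, 1.18, 1.80 and 1.56 CPM in Y665H females and 0.494, 0.566, 0.544 and 0.629 CPM in Y665H males, where it was called lower (-1.41, SE 0.27, adjusted p = 0.00449), and it overlapped between the sexes in WT and Y665F. Tbx15 stayed at 0 to 0.347 CPM in males and ranged from 0.0343 to 3.33 CPM in females, with Y665H female 3 the highest. En1 was at 0.0575 to 0.317 CPM in males and 0.17 to 0.503 CPM in females, and was not called in WT, where it was tested. Tbx15 did not pass the filter between the sexes.

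Fewer members were called between genotypes than between the sexes. In males 0 of 29 members tested were called for Y665F or for Y665H against WT by edgeR, where 0% of genes were called in either comparison. At an unadjusted p under 0.05 stood 3 members in Y665F and 9 in Y665H, and DESeq2 called 0 in both. Hoxc9 was the member whose groups did not overlap in Y665F, at 2.50, 2.69, 2.38 and 2.25 CPM against 4.29, 2.72, 5.27 and 4.05 CPM in WT males (adjusted p = 0.264), where 8.85% of genes did not overlap. The 9 in Y665H were Hoxb2, Hoxb3, Hoxb4, Hoxb6, Hoxb7, Hoxb8, Hoxd3, Hoxd4 and Hoxd9, for each of which WT male 2 held the highest value of all males, and 0 members were without overlap, against 3.6% of genes. All 9 were lower in Y665H on average, and the median log2 fold change of the 29 members was -0.58, beside -0.05 over all genes. The means of Hoxb8 were 72.3 ± 76.0 CPM in WT and 13.7 ± 7.59 CPM in Y665H males (SD, n = 4). Between Y665H and Y665F males 0 members were called, against 1.03% of genes, with 3 at an unadjusted p under 0.05. Hoxa7, Hoxc8 and Hoxc9 did not overlap there, all higher in Y665H, against 12.5% of genes.

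In females, 0 of 37 members were called for Y665F against WT, where 3.33% of genes were called, with 4 at an unadjusted p under 0.05. Hoxc10 came nearest, at 20.0, 22.1, 14.1 and 21.3 CPM against 25.9, 25.5, 26.7 and 22.6 CPM in WT (adjusted p = 0.0976, edgeR). Each Y665F library lay below each WT library, and DESeq2, or leaving out Y665F female 3, called it. Hoxb4, Hoxb5, Hoxb6, Hoxb8 and Hoxd9 were higher in each Y665F library than in any WT library, which with Hoxc10 made 6 members without overlap, against 22.9% of genes.

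For Y665H against WT in females 1 of 37 members was called, where 3.34% of genes were called. This was Hoxc5, a gene of neck and thoracic levels, at 5.86, 8.45, 8.21 and 6.99 CPM in Y665H females and 13.3, 12.3, 14.3 and 11.3 CPM in WT females (log2 fold change -0.79, SE 0.13, adjusted p = 0.0219). The call was lost in 5 of 8 fits that each left out 1 library, with an adjusted p of up to 0.093, in those without WT female 1, WT female 4, Y665H female 1, Y665H female 3 or Y665H female 4. Without WT female 3, Hoxd3 was called lower as well. Hoxc10 and Hoxa9 were higher in each Y665H library than in any WT library, but were not called, with adjusted p of 0.0665 and 0.0826. Hoxc5 and Hoxc10 lie on the same strand and share annotated exon bases, 5.37% of those of Hoxc5. Their levels lay on opposite sides of WT, Hoxc10 without a call, and the part of read assignment in this was not tested.

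**Figure D5:**
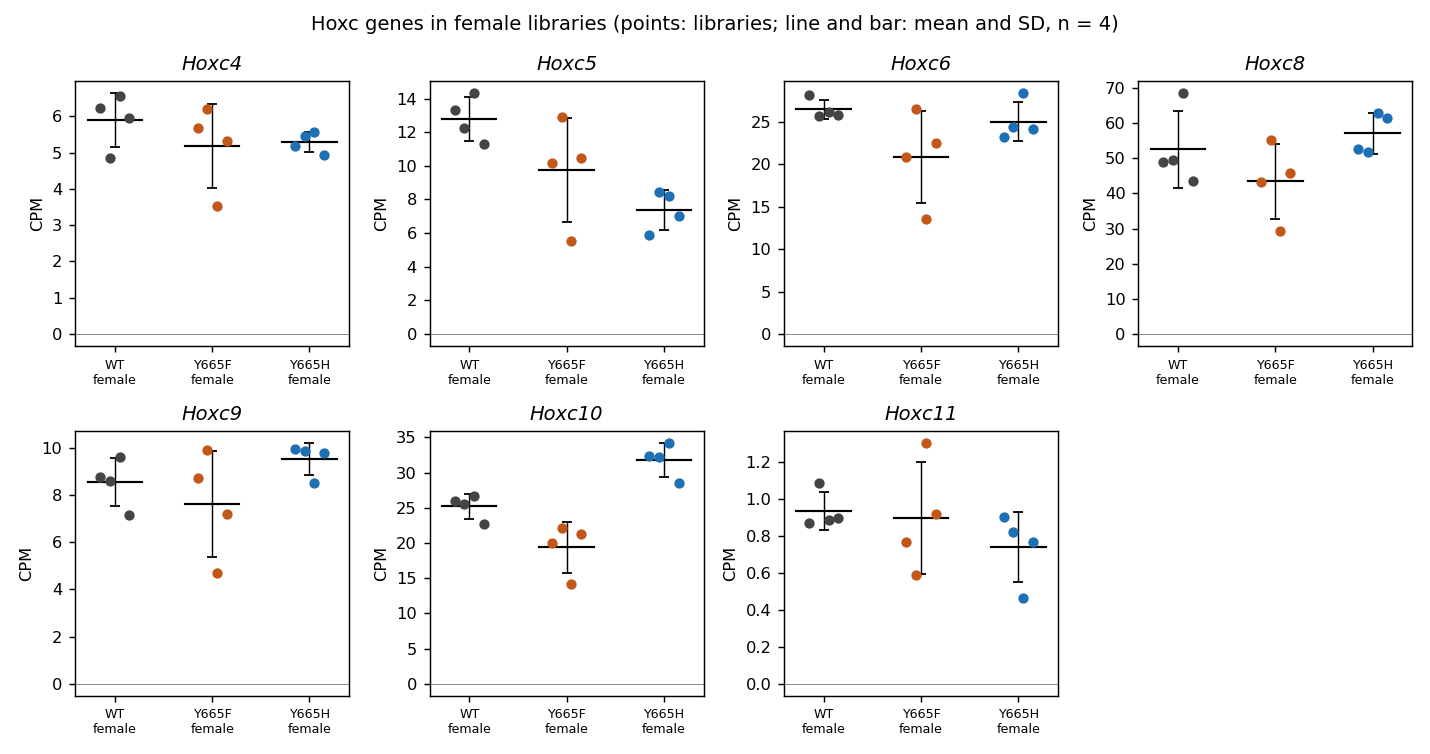
CPM of the 7 expressed Hoxc genes in the 3 female groups, on linear axes from 0. Points are libraries, the line is the mean and the bar the SD (n = 4); Hoxc5 is at 5.86 to 8.45 CPM in Y665H against 11.3 to 14.3 CPM in WT, Hoxc10 is at 28.5 to 34.2 CPM in Y665H, and the lowest Y665F point for Hoxc4 to Hoxc10 is replicate 3.

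Between the mutants, 4 of 36 members were called in females for Y665H minus Y665F, where 17.4% of genes were called, and 8 did not overlap, against 28.1% of genes. Hoxc10 averaged 31.8 ± 2.40 CPM over the Y665H and 19.4 ± 3.59 CPM over the Y665F libraries (SD, n = 4; log2 fold change 0.86, SE 0.16, adjusted p = 0.00891), and this call stayed in each of the 8 fits that left out 1 library but was lost in the fit of all 24 libraries (adjusted p = 0.17). Hoxa7 was higher in Y665H (0.46, SE 0.13, adjusted p = 0.0377). Hoxd3 (-0.49, SE 0.11, adjusted p = 0.02) and Hoxd11 (-1.14, SE 0.30, adjusted p = 0.0327) were lower. These last 3 were all lost without Y665F female 1, Y665F female 4 or Y665H female 1. Over the 8 fits Hoxa7 was lost in 6, Hoxd11 in 5 and Hoxd3 in 4, and Hoxd11 included the high value of Y665F female 3, 9.65 CPM. When libraries were scaled by their totals rather than by TMM, 6 members were called, 1 higher and 5 lower. The 2 comparisons with WT females and this one share libraries. Markers of other cells moved in the same comparison: 9 of 13 skeletal muscle and 5 of 6 thermogenic adipocyte markers were called higher in Y665H, and 4 of 6 B cell and 2 of 6 T cell markers lower. Their part in the values of the members was not tested.

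Whether a mutation acted differently in males and females was tested by an interaction term over 16 libraries. By edgeR 0 of 37 members were called for Y665F, against 0% of genes, and 0 of 37 for Y665H, against 0.0178% of genes. At an unadjusted p under 0.05 stood 6 and 10 members. DESeq2 called 0 for Y665F and 2, Hoxb8 and Hoxc5, for Y665H. Hoxc5 had the smallest adjusted p for Y665H, 0.093. Without WT male 1, the WT male library with the lowest epididymis sum, 8 members were called for Y665H, of which 5 were Hoxb genes with a lower change in males, and 1, Hoxd9, for Y665F.

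HOX proteins bind DNA together with PBX and MEIS family cofactors, whose genes were measured as a list of 9. In WT 3 were called lower in males, among them Meis2 (16.3 ± 3.80 CPM in males, 35.4 ± 5.62 in females, SD, n = 4) and Meis1 (31.5 ± 8.16 and 57.0 ± 13.8 CPM). In Y665F 2 were called lower in males, one of them Pknox2, and 1, Meis3, higher. In Y665H 3 were lower, Meis2, Meis1 and Pknox2, and 2 higher, one of them Meis3. Of all genes tested, 13.1%, 15.1% and 28.8% were called in the 3 genotypes, and nothing particular to the cofactors is read from these counts. The median log2 fold change of the list was -0.15 in WT, -0.22 in Y665F and -0.05 in Y665H. Y665F male 4 and Y665F female 3 had the highest cofactor sums of their sexes, 319 and 513 CPM. Between Y665H and WT females Meis3 was called lower (log2 fold change -0.59, SE 0.11, adjusted p = 0.032).

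Polycomb and trithorax proteins maintain the silent and active states of HOX clusters. Of 23 such genes, 3 were called higher and 1 lower in males in WT, 3 and 2 in Y665F, and 4 and 2 in Y665H (of all genes, 13.1%, 15.1% and 28.8% were called). Kdm6b, a demethylase that removes the Polycomb mark, was higher in males in all 3 genotypes, at 201 ± 21.4 CPM against 120 ± 10.8 CPM in WT (SD, n = 4). Kdm6a, its X-linked relative that escapes X inactivation, was lower, at 36.6 ± 4.58 CPM against 45.6 ± 2.13 CPM. Retinoic acid activates 3′ HOX genes in embryos. Of the genes for retinoid and caudal inputs, 1 was called higher and 1 lower in males in WT, 1 and 2 in Y665F, and 3 and 0 in Y665H, out of 10, 9 and 9 tested, to be read against the same shares of all genes. Aldh1a1, which makes retinoic acid, was at 460 ± 212 CPM in WT males and 112 ± 16.7 CPM in WT females, and was called higher in males in WT and Y665H.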

How the data were processed

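Total RNA-seq counts from 24 adipose libraries, 4 in each of 6 groups, were used; groups and replicate numbers came from the titles. Per the submitters' processing notes, the authors worked with build mm10 and with FastQC 0.11.9, Trimmomatic 0.36, STAR, SAMtools 1.9, Picard 2.9.2 and HTSeq 0.9.1. Each deposited file lists unnormalized whole-number counts by gene symbol, and per the labels' protocols the libraries were ribosome-depleted, stranded and sequenced as read pairs. The annotation and the strand setting of the counting are not given in the sources used here, so antisense and overlapping genes are uncertain. The 5 entries that name no gene, 24.8 to 39.7% of all counts, entered neither library sizes nor tests.

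Each comparison was fitted on its own 8 libraries, and each interaction on 16, with edgeR 4.0.16 (quasi-likelihood F test, TMM scaling, filterByExpr filter, R 4.3.3). Adjusted p-values are Benjamini-Hochberg values over all genes tested, and called means under 0.05. CPM are counts per 1000000 gene counts without TMM. Exon lengths and positions came from GENCODE M21 on GRCm38, the assembly that mm10 names, and promoters from RefSeq.

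The members and all lists were chosen with earlier results of these data known. Any member could be named with its levels; fold changes were given for called members, at most 12 per contrast in order of p, and at most 4 called genes of a list were named. Results for some single genes, 1 member among them, are not reported here, though they count in the totals. Haglros, Hoxb3os and Muc16 were not analysed here. Every pair of libraries within a group differed by more than sampling noise (chi-square per degree of freedom at least 16.4). In 0 of 9 contrasts did every same-numbered pair of libraries correlate over 0.1 in its deviations from the group means, so numbers only name the libraries. Alternatives were DESeq2 1.42.0, relative log expression scaling, library totals, no filter on low counts, all 24 libraries in 1 fit, the replicate number as a block, and leaving out each library. Fits without 2 libraries were added after seeing the data. The fit was tested on simulated data: of genes changed 4-fold, 68.7% were called for WT males against WT females (15865 genes) and 88.9% for Y665H (15742 genes), and of genes changed 2-fold, 19.4% and 62%.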

Additional observations from a re-analysis of the deposited data

Results flagged for a closer look

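In 28 of 198 groups of 4 libraries, 1 library lay far from the other 3 by Dixon's criterion at the 95% level, where chance gives about 1 in 20. Of these, 12 were the highest value of Y665F male 4. They were Hoxa2 at 2.86 CPM, Hoxa9 at 4.20, Hoxa10 at 22.6, Hoxa11 at 13.3, Hoxa13 at 3.11 and Hoxb9 at 24.2 CPM. The others were Hoxc11 at 1.06 CPM, Hoxd3 at 20.9, Hoxd10 at 4.97, Hoxd11 at 10.1, Hoxd12 at 1.44 and Hoxd13 at 5.36 CPM.

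Another 4 were the highest value of Y665F female 3, with Hoxb8 at 9.55 CPM, Hoxd12 at 1.51, Hoxd13 at 6.97 and Pitx1 at 41.9 CPM. WT male 2 was high for Hoxb1 at 1.44 CPM and Hoxb9 at 53.2 CPM. WT female 2 was high for Hoxa11 at 8.97 CPM and Hoxc11 at 1.09 CPM, and Y665H male 4 for Hoxa3 at 9.02 CPM and Hoxa6 at 4.16 CPM. Single high values were Hoxb4 at 18.7 CPM in Y665H male 3, Hoxd8 at 25.5 in WT female 1, Hoxd9 at 16.3 in Y665F female 4 and Hoxd13 at 1.56 in Y665H female 4. Low values were Hoxa7 at 8.57 CPM in Y665F male 1 and Hoxc9 at 8.49 CPM in Y665H female 3.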

How the results depend on the processing

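Over 556 recomputed values of single genes, 0 reversed, 86 were no longer called and 470 were unchanged in direction and call. Of 68 counts of members under alternatives other than leaving out 1 library, 13 moved by over 1.5 times, and the cause was not tested. DESeq2 called 17 members for males against females in Y665F, 1 for Y665F and 3 for Y665H against WT females, and 2 for the sex difference of the Y665H effect. With all 24 libraries in 1 fit, 5 were called for Y665F against WT males, 0 for Y665H against WT females, and between Y665H and Y665F 1 in males and 2 in females. Without Y665F male 4 and Y665F female 3, 18 were called between the sexes in Y665F. With the replicate block, 11 were called between the sexes in WT and 5 in Y665F, 0 for Y665H against WT females and 1 between the mutants in females, though the numbers were not shown to pair the libraries.

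Leaving out 1 library gave 7 to 23 members called between the sexes in WT, 5 to 17 in Y665F and 23 to 26 in Y665H. It gave 0 to 1 for Y665F and 0 to 2 for Y665H against WT females, 1 to 4 between the mutants in females, and 0 to 1 and 0 to 8 for the sex difference of the Y665F and the Y665H effect. Library totals in place of TMM moved the median log2 fold change of all genes from 0.04 to 0.19 between the sexes in WT, from 0.02 to 0.17 in Y665H, from 0.02 to 0.15 for Y665F against WT females, from -0.03 to -0.18 between the mutants in females, and from -0.06 to -0.24 for the sex difference of the Y665F effect. Members under about 0.1 CPM were near the level that a count of 0 allows.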

Other observations

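Some other positional transcription factors and RNAs of the HOX loci were called between the sexes. Of 25 such factors tested in WT, 2 were called higher and 5 lower in males. In Y665F 1 of 23 was higher and 2 lower, and in Y665H 2 of 25 were higher and 6 lower. Of all genes tested, 13.1% were called in WT, 15.1% in Y665F and 28.8% in Y665H, and the counts are to be read against these shares. Prrx1, a factor of limb and craniofacial mesenchyme, was called lower in males in Y665F (log2 fold change -1.35, adjusted p = 0.000924, edgeR) and in Y665H (-1.20). Of the RNAs of the HOX loci, 4 of 11 tested were called in WT, 1 of 9 in Y665F and 4 of 9 in Y665H. Hottip, transcribed from the 5′ end of the Hoxa cluster, had no count in WT males and was at 0.393 ± 0.135 CPM in WT females (SD, n = 4). Hotairm1, from the 3′ end of that cluster, was called higher in males in Y665F (0.89) and in Y665H (0.79).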
